A study of Mus musculus with 2 samples.

Results

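The tumour necrosis factor (TNF) superfamily was examined in RNA-seq values of mouse ear epidermis, as the 42 gene rows of the deposited table, of 26242 genes in all, whose names mark a TNF superfamily ligand or receptor. The rule that picks these rows reads gene symbols and no measured values. The rows cover 43 gene symbols: 16 ligands in 15 rows, since Tnfsf12 and Tnfsf13 share a row, and 27 receptors in 27 rows. The tested library came from C57BL/6 mice labelled as K14 conditional Il9ra knockouts, in which the interleukin-9 receptor gene is deleted conditionally through keratin 14, a keratin of basal keratinocytes. The other library came from wild-type C57BL/6 mice. All mice had 5% imiquimod cream on the ears for 6 days, so no untreated skin is included. Imiquimod activates Toll-like receptor 7 and produces psoriasis-like inflammation. The sources used here do not give the age of the mice, how many were pooled per library or the Cre line, and Krt14 is active in the outer root sheath of hair follicles as well as in the interfollicular epidermis.

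With 1 library per genotype, the spread between animals is unknown, and no p-value was computed. Values are FPKM, in which fragments are divided by transcript length and by the size of the library, which allow levels to be compared between genes. Estimated depth was about 31300000 fragments for the knockout library and about 24200000 for the wild-type library. Il9r itself was listed at 0.011 FPKM in the knockout library and 0.039 FPKM in the wild-type library, too low to check the genotype labels. Keratinocyte markers dominated both libraries, with a summed level of 30555 FPKM in the knockout and 28596 FPKM in the wild-type library over 5 genes. Markers of B cells (4 genes) summed to 0.89 FPKM (knockout) and 0.58 FPKM (wild type), and those of fibroblasts (5 genes) to 2.02 FPKM (knockout) and 2.51 FPKM (wild type).

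Ligands of the TNF superfamily are mostly membrane-bound or shed trimers, and their receptors signal when trimers bring them together. Receptors with a cytoplasmic death domain can recruit the adaptors TRADD or FADD and caspase-8, whereas most others bind TRAF proteins and activate NF-kappaB and MAP kinases. Decoy receptors bind ligand without passing on a full signal. In skin, TNF acts on keratinocytes and is a target of psoriasis therapy, and members such as RANK, CD40 and GITR are known from Langerhans cells and T cells.

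In both libraries a larger share of the receptor rows than of the ligand rows reached 1 FPKM. Of the 27 receptor rows, 15 reached 1 FPKM in the knockout library and the same number in the wild-type library. Of these 15, 2 are shared with a neighbouring gene (Sdf4 with Tnfrsf4, Plekhg5 with Tnfrsf25), so how much of their level is receptor cannot be told apart, and 13 rows hold a receptor alone. Only 3 of the 15 ligand rows did so in either library: Tnf, the row holding Tnfsf12 and Tnfsf13, and Tnfsf9. Among all genes, 45.3% reached 1 FPKM in at least 1 library, against 3 of 15 ligand rows and 55.6% of the receptor rows. The share of receptor rows, shared ones included, was thus near that of all genes. The median receptor stood at 1.58 FPKM in the knockout against 1.66 FPKM in the wild-type library, and the median ligand at 0.31 FPKM (knockout) and 0.46 FPKM (wild type). Summed over the rows, shared ones included, receptors came to 353.6 FPKM in the knockout library against 399.5 FPKM in the wild-type library, and ligands to 28.7 FPKM (knockout) and 29.2 FPKM (wild type). The receptor sum was 12.3 times the ligand sum in the knockout library and 13.7 times in the wild-type library. These sums run over 27 receptor rows and 15 ligand rows. Tnfrsf1a and Tnfrsf12a together held 59.1% of the receptor sum in the knockout library and 62.5% in the wild-type library.

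**Figure D1:**
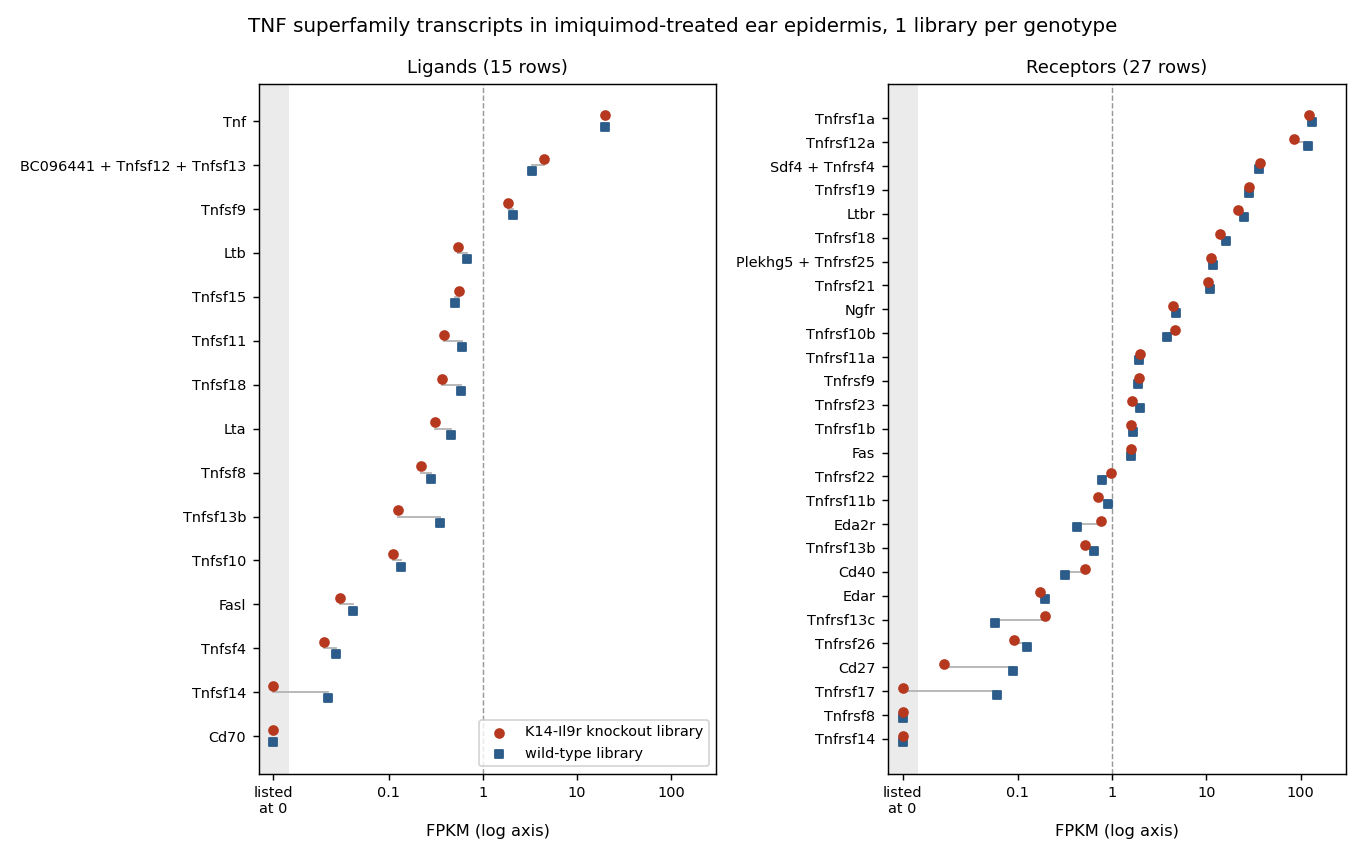
FPKM (log axis) of the 15 ligand rows and 27 receptor rows in the knockout library (circles) and the wild-type library (squares), 1 library per genotype, with values of 0 placed in the shaded band and a dashed line at 1 FPKM. Tnf stands alone among the ligands above 10 FPKM in both libraries, while 8 receptor rows, 2 of them shared, lie at or above 10 FPKM in each.

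The 2 libraries were close across the family. None of the 18 members with at least 1 FPKM was 2-fold higher and none 2-fold lower in the knockout library, on the scale log2((knockout FPKM + 1)/(wild-type FPKM + 1)). Of all 11886 genes at that level, 0.412% were at least 2-fold higher and 0.345% at least 2-fold lower, so a count of 0 among 18 genes is near the background. All 18 members reached 1 FPKM in both libraries, so none of them passed through 1 library alone. Their log2 differences ran from -0.47 for Tnfrsf12a to 0.31 for the row of Tnfsf12 and Tnfsf13. These were the only ones of the 18 at least 1.2-fold apart on this scale, where 15.5% of all genes at that level were. The median log2 difference was -0.05 for the 15 receptors and -0.01 for the 3 ligand rows, beside -0.02 for all genes, and 5 of the 18 members were higher in the knockout library and 13 lower, where 44.4% of all genes were higher and 55.6% lower. After scaling on the upper quartile, 8 members were higher and 10 lower. With a filter of 5 FPKM, 1 member was higher and 8 lower. With no filter 10 were higher and 29 lower, where 8152 of all 26242 genes were higher and 10026 lower. In the authors' deposited table, 0.0684% of loci had a q below 0.05, and no member was among them. The lowest p of a member in the authors' deposited table was 0.0669, for Eda2r, with a q of 0.999, and that test compares 2 libraries and not 2 genotypes.

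**Figure D2:**
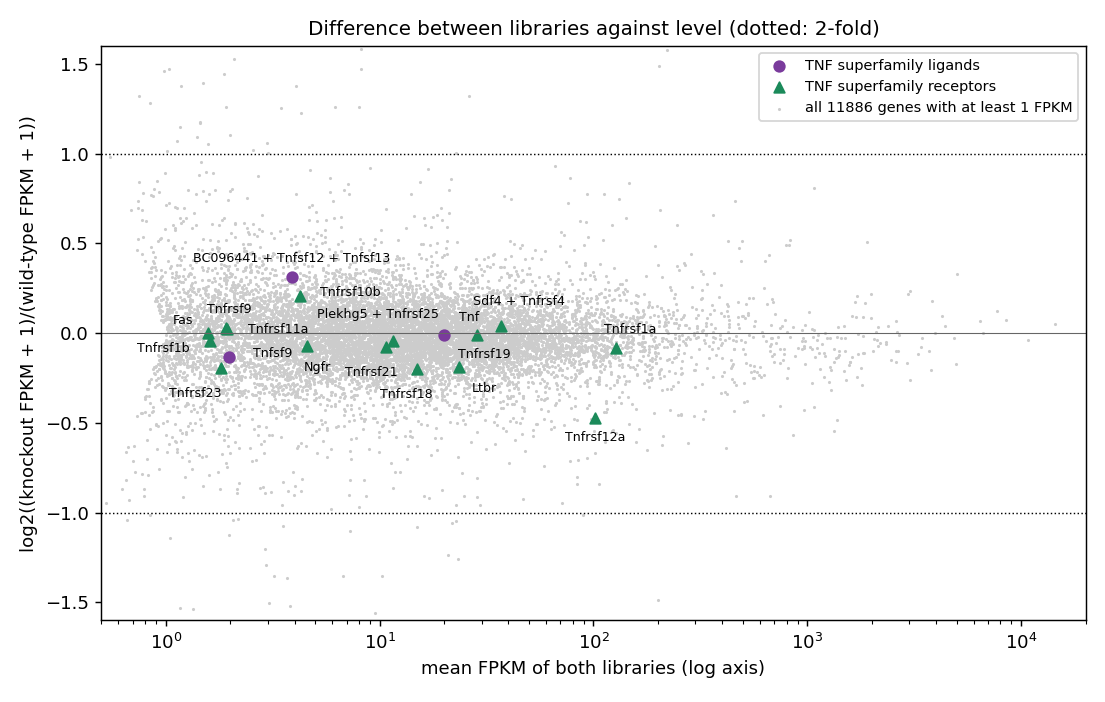
Log2 difference, knockout over wild type, against the mean FPKM of both libraries (log axis) for the 3 ligand rows and 15 receptors with at least 1 FPKM (labelled) and for all 11886 genes at that level (grey), with dotted lines at 2-fold and 33 genes beyond the plotted range. Every labelled member lies between the dotted lines, and Tnfrsf12a is the lowest at -0.47.

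Tnf, the inflammatory cytokine that gives the family its name (ENSMUSG00000024401, GRCm38 chromosome 17, minus strand, 35199381 to 35202007), was by far the most abundant ligand. It stood at 19.8 FPKM in the knockout library and 19.998 FPKM in the wild-type library, a log2 difference of -0.01. It held 69.0% of the summed ligand level in the knockout and 68.6% in the wild-type library. Tnf lies between Ltb and Lta, which encode the lymphotoxins, in a stretch of 10.9 kb. Its neighbours were far lower. Lta stood at 0.31 FPKM in the knockout and 0.46 FPKM in the wild-type library, or about 13 (knockout) and 15 (wild type) fragments, and Ltb at 0.54 FPKM (knockout) and 0.68 FPKM (wild type), or about 20 (knockout) and 19 (wild type) fragments.

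The row of Tnfsf12 and Tnfsf13, which encode TWEAK and APRIL, was at 4.42 FPKM in the knockout library and 3.36 FPKM in the wild-type library. Its log2 difference of 0.31 was the highest among members past 1 FPKM, and 4.84% of all genes at that level were as high or higher. The genes lie 465 bases apart on the same strand of chromosome 11, and the row also carries the name BC096441, so the value cannot be assigned to 1 of them. Tnfsf9, the ligand of the T cell co-stimulator CD137, was at 1.84 FPKM in the knockout and 2.11 FPKM in the wild-type library.

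The other 12 ligands were under 1 FPKM in both libraries, and 10 of them were lower in the knockout library, 1 was higher and 1 was listed at 0 in both. Over all genes that were under 1 FPKM in both libraries and above 0 in at least 1, 54.3% were lower in the knockout library. Each of these ligands rests on few fragments. Tnfsf11, which encodes RANKL, was at 0.39 FPKM in the knockout and 0.61 FPKM in the wild-type library, about 27 (knockout) and 33 (wild type) fragments. Tnfsf18, the ligand of GITR, was at 0.37 FPKM (knockout) and 0.58 FPKM (wild type), about 24 (knockout) and 29 (wild type) fragments. The B cell survival factor BAFF, encoded by Tnfsf13b, differed most, at 0.13 FPKM in the knockout and 0.35 FPKM in the wild-type library, or about 19 (knockout) and 41 (wild type) fragments. It was the 1 member past 2-fold when the pseudocount was 0.1 FPKM and no filter was used, with a log2 difference of -1.004 on that scale. At least 2-fold lower by that rule were 1.47% of all 26242 genes, and 1.38% were at least 2-fold higher. Tnfsf15, which encodes TL1A, was the 1 low ligand with a higher value in the knockout library, at 0.56 FPKM against 0.51 FPKM in the wild-type library.

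Tnfsf10, the gene of the apoptosis-inducing ligand TRAIL, was low, at 0.11 FPKM in the knockout and 0.13 FPKM in the wild-type library. Fasl, the ligand of Fas, was at 0.030 FPKM (knockout) and 0.042 FPKM (wild type), and Tnfsf8, which encodes the CD30 ligand, at 0.22 FPKM (knockout) and 0.28 FPKM (wild type). Some ligands of T cell co-stimulatory receptors, unlike Tnfsf9 and Tnfsf18, were listed at 0 or rested on about 1 fragment. Tnfsf4 (OX40 ligand) rested on about 1 fragment in each library, Tnfsf14 (LIGHT) was listed at 0 in the knockout library and rested on about 1 fragment in the wild-type library, and Cd70 was listed at 0 in both.

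Among receptors with a death domain, Tnfrsf1a, the main TNF receptor of keratinocytes (ENSMUSG00000030341, plus strand of chromosome 6, 125349362 to 125362484), was the most abundant member of the family. It stood at 123.6 FPKM in the knockout library and 130.9 FPKM in the wild-type library, a log2 difference of -0.08. At these levels it exceeded 94.5% of the 11886 genes in the knockout and 94.8% in the wild-type library. Tnfrsf21, which encodes death receptor 6, was at 10.4 FPKM in the knockout and 11.02 FPKM in the wild-type library. Ngfr, the low-affinity neurotrophin receptor, was at 4.44 FPKM (knockout) and 4.72 FPKM (wild type). Of the 6 death domain receptors that reached 1 FPKM, Tnfrsf10b alone was higher in the knockout library, at 4.63 FPKM against 3.87 FPKM in the wild-type library (log2 difference 0.21). It encodes the mouse TRAIL receptor. Fas was at 1.57 FPKM in the knockout and 1.58 FPKM in the wild-type library.

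Tnfrsf25, the receptor of TL1A, shares a row with Plekhg5, which ends 533 bases upstream on the same strand of chromosome 4, and the row was at 11.3 FPKM in the knockout and 11.7 FPKM in the wild-type library. Edar, the ectodysplasin receptor of hair follicle development, was under 1 FPKM, at 0.17 FPKM in the knockout and 0.19 FPKM in the wild-type library. All 6 hair follicle markers were lower in the knockout library, with a summed level of 30.7 FPKM against 43.0 FPKM in the wild-type library and single genes between 0.60 and 23.0 FPKM in the knockout and between 1.09 and 27.97 FPKM in the wild-type library. Their part in the values of Edar was not tested. In bulk tissue, fewer cells of a type and less RNA per cell cannot be told apart.

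Tnfrsf12a, which encodes the TWEAK receptor Fn14 (ENSMUSG00000023905, minus strand of chromosome 17, 23675445 to 23677468), was the member with the largest difference above 1 FPKM. It stood at 85.3 FPKM in the knockout library and 118.7 FPKM in the wild-type library, 1.39-fold lower in the knockout library. On the log2 scale the difference was -0.47, and 2.48% of all genes were as low or lower. Among 3549 genes with a mean between 20 and 150 FPKM, 5% lay below -0.31 and 5% above 0.23, and Tnfrsf12a was the only one of the 5 members in this range outside these limits. Limits drawn likewise for means of 1 to 5 and 5 to 20 FPKM left 0 of 9 and 0 of 4 members outside. As 5% of genes lie beyond each limit by construction, 1 of 18 members outside is not above the background. Tnfrsf12a accounted for most of the gap between the receptor sums, which without it were 268.3 FPKM in the knockout and 280.8 FPKM in the wild-type library. Its ligand TWEAK is in the shared row that was higher in the knockout library. With 1 library per genotype, it was not tested whether either difference exceeds that between animals.

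Other TRAF-binding receptors at 10 FPKM or more lay close together in the 2 libraries. Tnfrsf19, which encodes TROY, was at 28.4 FPKM in the knockout and 28.6 FPKM in the wild-type library. Ltbr, the lymphotoxin beta receptor, was at 21.9 FPKM (knockout) and 25.0 FPKM (wild type). Its log2 difference was -0.19, and 16.2% of all genes with at least 1 FPKM were as low or lower. Tnfrsf18, which encodes the T cell co-stimulator GITR, was at 13.8 FPKM in the knockout and 16.1 FPKM in the wild-type library. Its log2 difference was -0.20, and 14.6% of all genes with at least 1 FPKM were as low or lower. Tnfrsf4, which encodes the T cell co-stimulator OX40, lies 232 bases downstream of Sdf4, on the same strand of chromosome 4. Their shared row was at 37.3 FPKM in the knockout against 36.3 FPKM in the wild-type library, and how much of it is Tnfrsf4 cannot be told apart.

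Unlike Tnfrsf18, the 4 receptors known from immune cells that follow were under 2 FPKM in both libraries. Others of that kind, such as Cd27, are given further below. Tnfrsf9 (CD137) was at 1.94 FPKM in the knockout against 1.88 FPKM in the wild-type library, and Tnfrsf1b, the second TNF receptor, at 1.58 FPKM (knockout) and 1.66 FPKM (wild type). Tnfrsf11a, which encodes RANK, was at 1.96 FPKM in the knockout and 1.92 FPKM in the wild-type library. Cd40, a co-stimulatory receptor of antigen-presenting cells, was at 0.52 FPKM in the knockout and 0.32 FPKM in the wild-type library. In the same libraries all 9 Langerhans and dendritic cell markers were lower in the knockout library, with a summed level of 427.6 FPKM against 665.6 FPKM in the wild-type library. Single markers ran from 0.79 to 247.9 FPKM in the knockout library and from 0.82 to 342.1 FPKM in the wild-type library. The part of these cells in the values of Tnfrsf11a and Cd40 was not tested. T cell markers summed to 76.9 FPKM in the knockout and 75.2 FPKM in the wild-type library over 10 genes, 5 of them higher and 5 lower, with single genes from 0 to 49.4 FPKM in the knockout and from 0.039 to 50.3 FPKM in the wild-type library.

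The receptors of BAFF and APRIL on B cells were all under 1 FPKM. Tnfrsf13b (TACI) was at 0.52 FPKM in the knockout and 0.64 FPKM in the wild-type library. Tnfrsf13c, the BAFF receptor, rested on about 12 fragments in the knockout and about 3 in the wild-type library, and Tnfrsf17, which encodes BCMA, was listed at 0 in the knockout library and rested on about 1 fragment in the wild-type library. Of the 4 B cell markers, 2 were listed at 0 in both libraries and the highest value was 0.72 FPKM, in the knockout library. Cd27, known from T and B lymphocytes, was at 0.017 FPKM in the knockout and 0.088 FPKM in the wild-type library. Tnfrsf8 (CD30) and Tnfrsf14 (HVEM) were listed at 0 in both. Eda2r, the X-linked receptor of an ectodysplasin isoform, was at 0.76 FPKM in the knockout and 0.42 FPKM in the wild-type library, a ratio of 1.82 and a log2 difference of 0.31 with the pseudocount of 1 FPKM.

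The 3 decoy receptors lay between 0.71 and 1.62 FPKM in the knockout library and between 0.78 and 1.99 FPKM in the wild-type library. Tnfrsf11b, which encodes osteoprotegerin, the soluble decoy of RANKL, was at 0.71 FPKM in the knockout and 0.90 FPKM in the wild-type library. The mouse TRAIL decoy receptor genes Tnfrsf22 and Tnfrsf23 lie next to each other on chromosome 7, near Tnfrsf26, which was at 0.090 FPKM (knockout) and 0.12 FPKM (wild type). Tnfrsf22 was at 0.97 FPKM in the knockout against 0.78 FPKM in the wild-type library, and Tnfrsf23 went the other way, at 1.62 FPKM (knockout) and 1.99 FPKM (wild type). Their coding sequences are 90.4% identical over 531 aligned bases, and the longest identical run is 102 bases, so reads can be divided between them and the opposite directions are uncertain. Taken as a sum, the pair was at 2.58 FPKM in the knockout and 2.77 FPKM in the wild-type library, a log2 difference of -0.08. A stretch of 130 coding bases around that run, from GENCODE M21 transcripts (GRCm38, minus strand of chromosome 7), shows how little separates them, with the 3 differing bases in capitals. It covers coding bases 407 to 536 of Tnfrsf22 and 377 to 506 of Tnfrsf23.
Tnfrsf22: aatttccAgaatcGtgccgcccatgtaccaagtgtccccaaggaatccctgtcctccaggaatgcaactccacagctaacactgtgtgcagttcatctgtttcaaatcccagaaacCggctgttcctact
Tnfrsf23: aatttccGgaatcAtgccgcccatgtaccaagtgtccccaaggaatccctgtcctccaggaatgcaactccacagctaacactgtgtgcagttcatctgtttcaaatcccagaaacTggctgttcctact

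Ligands and receptors were then set side by side in 28 textbook pairs, which share members and include 2 ligand genes outside the 42 rows, Cd40lg and Eda. Both partners reached 1 FPKM in 4 pairs in each library: Tnf with Tnfrsf1a, Tnf with Tnfrsf1b, Tnfsf9 with Tnfrsf9, and Tnfsf12 (in its shared row) with Tnfrsf12a. The receptor row alone did so in 11 pairs in each library, with Tnfrsf4 and Tnfrsf25 there only through their shared rows. The ligand row alone did so in 2 pairs, those of APRIL (in its shared row) with Tnfrsf13b and with Tnfrsf17. In 11 pairs neither partner did. With shared rows taken at their full value, the receptor was the higher partner in 21 of the pairs in the knockout library and 18 in the wild-type library. The 3 pairs that changed order were Tnfsf9 with Tnfrsf9, Tnfsf13b with Tnfrsf13c, and Eda with Eda2r, each with both partners at or below 2.11 FPKM. TRAIL receptors exceeded their ligand throughout: Tnfsf10 was below Tnfrsf10b, Tnfrsf22 and Tnfrsf23 in both libraries. RANKL was below both RANK and osteoprotegerin in both libraries. Cd40lg, the ligand of CD40 on activated T cells, was listed at 0 in the knockout library and at 0.11 FPKM in the wild-type library. Eda, the ectodysplasin gene, was at 0.71 FPKM (knockout) and 0.66 FPKM (wild type), and the related receptor gene Relt at 0.59 FPKM (knockout) and 0.48 FPKM (wild type).

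**Figure D3:**
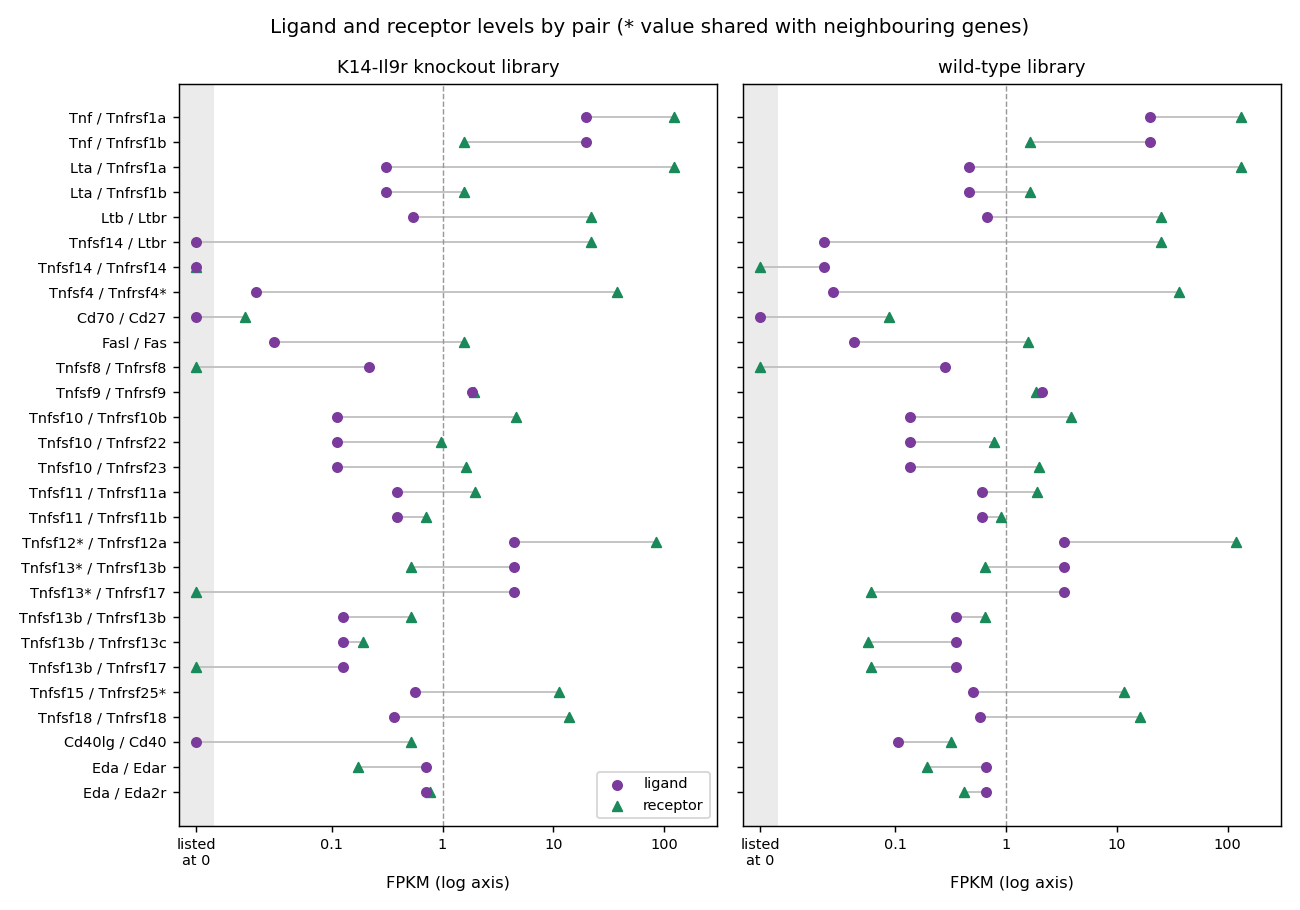
FPKM (log axis) of the ligand (circles) and the receptor (triangles) of 28 pairs in the knockout library (left) and the wild-type library (right), with values of 0 in the shaded band, a dashed line at 1 FPKM and an asterisk where a value is shared with neighbouring genes. The 4 pairs with both partners to the right of the dashed line are the same in each panel.

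Genes acting just inside the receptors, such as adaptors, kinases, ubiquitin ligases and caspases, differed in both directions between the 2 libraries. Of 40 such genes 39 reached 1 FPKM, 21 of them higher and 18 lower in the knockout library. Their median log2 difference was 0.03, and no gene was 2-fold apart. At least 1.2-fold higher were 5 of the 39, against 6.69% of all genes, and at least 1.2-fold lower were 4, against 8.85%. Taken either way, 9 of the 39 were at least 1.2-fold apart, a larger share than the 15.5% of all genes. Tbk1, a kinase of NF-kappaB and interferon signalling, was at 25.4 FPKM in the knockout and 19.7 FPKM in the wild-type library. Casp8, the initiator caspase of death receptors, was at 8.68 FPKM (knockout) and 6.88 FPKM (wild type), and Sharpin, a subunit of the linear ubiquitin ligase, at 17.6 FPKM (knockout) and 14.2 FPKM (wild type). The opposite direction was seen in Tnfaip3, which encodes the feedback inhibitor A20, at 48.8 FPKM in the knockout and 68.5 FPKM in the wild-type library. Map3k14, the NF-kappaB-inducing kinase NIK that acts downstream of Fn14, CD40 and the lymphotoxin beta receptor, was at 3.19 FPKM (knockout) and 4.72 FPKM (wild type). Traf4 was at 5.89 FPKM (knockout) and 7.50 FPKM (wild type). The abundant Tab2, an adaptor of the kinase TAK1, was at 45.1 FPKM (knockout) and 44.2 FPKM (wild type), and Rbck1, another subunit of the linear ubiquitin ligase, at 27.4 FPKM (knockout) and 28.7 FPKM (wild type).

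Genes that TNF is known to induce, which other inflammatory stimuli induce too, had a median log2 difference of -0.20, below that of the ligands, the receptors and the signalling genes. Of 20 such genes 18 reached 1 FPKM. In the knockout library 11 of these were lower and 7 higher, near the shares of all genes, and no gene was 2-fold apart. This list, the one before it and the 1.2-fold limit were chosen with earlier results of these data known. The counts at that limit therefore only describe these 2 libraries. At least 1.2-fold lower were 8 of the 18, against 8.85% of all genes, and 1 was at least 1.2-fold higher, against 6.69%. The lowest was Ccl20, a chemokine, at 325.8 FPKM in the knockout and 508.9 FPKM in the wild-type library. Its log2 difference was -0.64, and it was the 1 gene of the list at least 1.5-fold apart, where 2.75% of all genes were. Nfkbia, which encodes the NF-kappaB inhibitor I-kappa-B alpha, was the most abundant, at 440.2 FPKM in the knockout and 574.8 FPKM in the wild-type library. Nfkb2, the precursor of the p52 subunit, was at 10.8 FPKM (knockout) and 15.3 FPKM (wild type). Cxcl2, a neutrophil chemokine, was at 29.0 FPKM (knockout) and 41.8 FPKM (wild type), whereas its relative Cxcl1 was at 65.7 FPKM (knockout) and 63.5 FPKM (wild type). Mmp9, a matrix metalloproteinase, was low, at 1.16 FPKM (knockout) and 1.85 FPKM (wild type). Tnfaip3, Birc3 and Traf1 are in this list and in the one before, and without them 10 of 16 genes were lower, with a median of -0.20. Markers of 3 other cell types were lower in the knockout library as well: all 9 Langerhans and dendritic cell markers and all 6 hair follicle markers, whose sums are given above, and all 5 melanocyte markers. Other lists differed: all 5 keratinocyte markers were higher, and of 10 T cell markers 5 were higher and 5 lower. Of 6 monocyte and macrophage markers, 2 were higher and 4 lower. Of 5 fibroblast markers 1 was higher and 4 lower. Of 6 neutrophil markers 2 were higher, 2 lower and 2 listed at 0 in both libraries. Of 4 endothelial markers 1 was lower and 3 were listed at 0 in both. The lists of B cells and of mast cells, with 4 markers each, had 1 higher, 1 lower and 2 listed at 0 in both. The melanocyte markers summed to 16.3 FPKM in the knockout and 19.5 FPKM in the wild-type library, with single genes between 0.83 and 5.63 FPKM in the knockout and between 1.24 and 5.96 FPKM in the wild-type library. The part of these cells in the values of the TNF-induced genes was not tested. Tnf and Tnfrsf1a themselves differed by -0.01 and -0.08 in the same libraries.

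**Figure D4:**
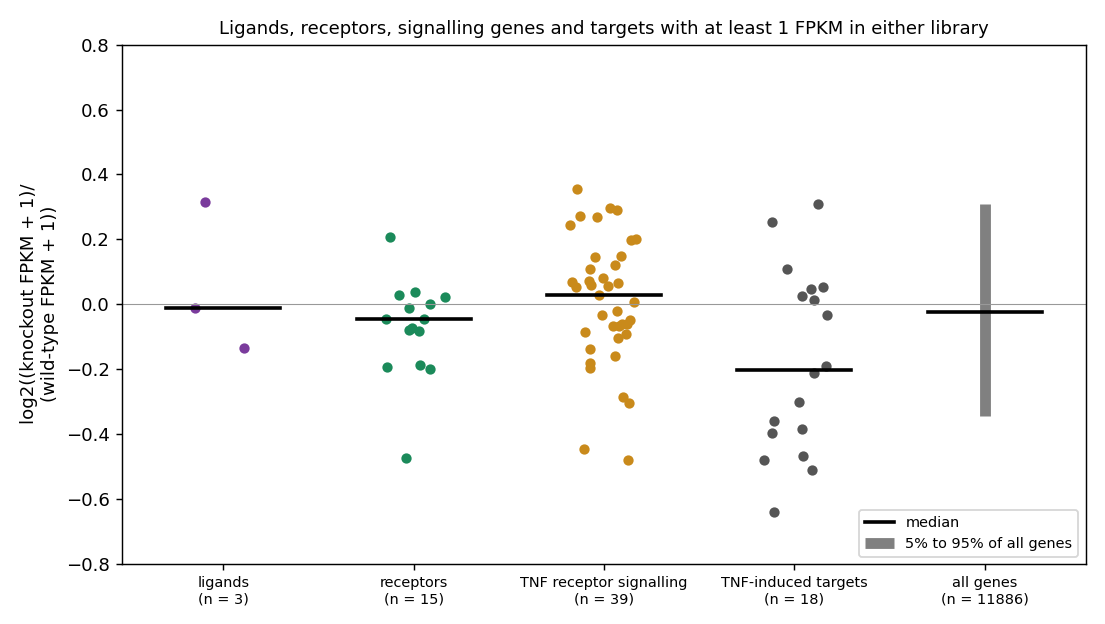
Log2 difference, knockout over wild type, of each gene with at least 1 FPKM in either library for 3 ligand rows, 15 receptors, 39 signalling genes and 18 TNF-induced targets, with black bars at the medians and a grey bar from 5% to 95% of all 11886 genes. The medians lie at -0.01, -0.05, 0.03 and -0.20, beside -0.02 for all genes.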

How the data were processed

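The authors processed the reads with TopHat2 2.0.13 and Cufflinks 2.2.1 on mm10, per the submitters' processing notes. The sources used here do not name the annotation, the options or the use of strand. Per the file headers, each row of the deposited table gives an FPKM for each library. The authors' deposited log2 fold change, test statistic (a score), p-value and q-value compare the 2 libraries and were copied. Ear epidermis had been freed with dispase and libraries made from Trizol RNA with a TruSeq mRNA kit, per the labels' protocols.

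Rows with a RefSeq transcript (26264 of 29246) were kept and rows of 1 name summed, which left 26242 genes. The comparison took genes that reached 1 FPKM in the knockout or the wild-type library, and a difference is log2((knockout FPKM + 1)/(wild-type FPKM + 1)), which understates the change of low genes. Folds are ratios of FPKM unless the scale is named. Fragments were estimated from the lowest step of FPKM times length. They are approximate, too high for short transcripts, and carry no interval.

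The rule for the members reads symbols only, but the members, lists, pairs and thresholds were chosen with earlier results of these data known. Members with at least 1 FPKM were all named, and in the signalling and target lists the 3 most abundant genes and the 6 largest differences; low members, Birc3, Traf1 and the genes outside the rule were named as partners or after their values were seen. Positions are those of GENCODE M21 (GRCm38, the assembly of mm10). Python 3.11.15, numpy 2.4.6, pandas 2.3.3, matplotlib 3.10.9 and blastn 2.17.0+ were used.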

Additional observations from a re-analysis of the deposited data

How the results depend on the processing

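No paired analysis was possible because each genotype has 1 library. After the data were seen, 2 alternatives were added: a pseudocount of 0.1 FPKM with no filter, and the members without rows shared with other genes. Over all genes, 49 were at least 2-fold higher and 41 lower in the knockout library. A pseudocount of 0.1 FPKM gave 100 higher and 103 lower, a pseudocount of 5 FPKM gave 16 and 16, and a 1.5-fold limit gave 156 and 171, while a filter of 5 FPKM left 24 higher. With a pseudocount of 0.1 FPKM and no filter they were 361 and 387, the count of members lower was 1 (Tnfsf13b) and the median of ligands was -0.19. The count of members at least 2-fold apart was 0 under every other alternative, 1.5-fold included. With no filter and a pseudocount of 1 FPKM this was fixed in advance for the added low members. Genes under 1 FPKM in both libraries cannot be 2-fold apart on that scale. With a pseudocount of 5 FPKM the same holds for genes under 5 FPKM in both libraries. Only 1 ligand row and 8 receptor rows reached 5 FPKM in either library. The median of the 3 ligand rows past the filter changed sign when scaled on the upper quartile (0.02) or centred on the median gene (0.01). Without shared rows it was -0.07 over 2 rows, and the median of the 13 receptors was -0.07, with 3 members higher and 12 lower. After either scaling the median of receptors ran from -0.03 to -0.02 and it was -0.08 with a filter of 5 FPKM. The median of TNF-induced targets ran from -0.13 (no filter) to -0.30 (filter of 5 FPKM).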

Other observations

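Of the 43 genes, 23 lie in 9 runs in which neighbouring members are at most 300 kb apart, by their GENCODE M21 positions, and members of some runs differed widely in level. On chromosome 6, Tnfrsf1a was at 123.6 FPKM in the knockout against 130.9 FPKM in the wild-type library, and Ltbr at 21.9 FPKM (knockout) and 25.0 FPKM (wild type), while Cd27 in the same 129.9 kb was at 0.017 FPKM (knockout) and 0.088 FPKM (wild type). On chromosome 4, Tnfrsf1b was at 1.58 FPKM (knockout) and 1.66 FPKM (wild type) and its neighbour Tnfrsf8 was listed at 0 in both libraries. A stretch of 88.9 kb of chromosome 17 holds Tnfsf9, at 1.84 FPKM in the knockout and 2.11 FPKM in the wild-type library, next to Cd70 and Tnfsf14, which were at or near 0. Tnfsf4, Tnfsf18 and Fasl on chromosome 1 were under 1 FPKM in both libraries, as were Tnfsf15 and Tnfsf8 on chromosome 4.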
